A study of Mus musculus with 294 samples.

Results

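The receptors for platelet-derived growth factor (PDGF) and for endothelin, with the main enzyme that makes mature endothelin, are 5 genes: Pdgfra, Pdgfrb, Ednra, Ednrb and Ece1. They were chosen by name, as the signalling receptors of both families plus their enzyme, and are 5 of 15124 genes with a row in the deposited count table. All 5 were measured in each of 294 single cells of the mouse heart. The cells came from Wnt1-Cre; R26-EYFP embryos, in which a Cre recombinase driven by Wnt1 switches on the yellow fluorescent protein EYFP in the neural crest and its descendants. Tissue around the aorticopulmonary septum, the wall that divides the outflow tract of the heart, was dissociated at 4 ages between E11.5 and E17.5 (days of embryonic development, with E14.5 and E12.5 as the others), and EYFP-positive cells were sorted and sequenced one by one. All cells share 1 genotype and no treatment was labelled, so they form 1 group. No label gives the stage, animal or chip of a cell, and 1 group without named animals is 1 sample.

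PDGF receptors alpha and beta are tyrosine kinases that pair up when a PDGF dimer binds them, and they pass the signal on through adaptor proteins, phosphoinositide 3-kinase and phospholipase C. Both act in mesenchyme that comes from the neural crest, and PDGF receptor beta is widely used to mark pericytes and other mural cells of vessels. Endothelin receptors A and B are G protein-coupled receptors, and Ece1 cuts the inactive precursor of endothelin to the active peptide. Endothelin A signalling is needed in the neural crest of the face, pharyngeal arches and outflow tract. Endothelin B is best known in migrating crest, melanocytes, enteric neurons and glia.

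Total reads per cell ran from 34046 to 3033857, with a median of 1204543. Cells were set apart only by the first digit of their name, called the name series here, which runs from 1 to 7 and whose meaning the labels do not give. Series 1 stood apart: its 58 cells had a median of 7718 genes with at least 1 read, while the medians of series 2 to 7 lay between 3123 and 4676.5. It held no cell with 0 reads of Pdgfra, Pdgfrb or Ednra, whereas 44, 99 and 178 cells of the other series had none. Values that lean on series 1 are therefore given with and without it. A level is given in CPM, the reads of a gene per 1000000 reads of the cell, and a gene was counted as detected at 10 CPM or more. Intervals are exact Clopper-Pearson 95% intervals. They cover counting error only: reads carried no molecular identifiers, so several can stem from 1 molecule, and cells are not replicates.

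Pdgfra, the receptor for PDGF-A and PDGF-C, was the most widely detected of the 5 genes, and its very high levels differed between name series. The gene lies on chromosome 5, from 75152292 to 75198215 on the plus strand of GRCm38. It was present in 78.6% of the 294 cells (interval 73.4% to 83.1%), and in 183 cells (62.2%) it reached 100 CPM. The median over all cells was 199 CPM. The series medians were 103.2, 58.3, 205.4, 321.05, 546.01, 635.8 and 478.9 CPM for series 1 to 7. Series 1 thus detected the gene in 82.8% of its cells at low levels, and series 2 had both the lowest median and the lowest share, 58.3%.

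Levels of 1000 CPM or more separated the series further. They were reached in 0 of 58 cells of series 1 (interval 0 to 6.16%) and in 1 of 48 cells of series 2 (2.08%). The shares in series 3, 4, 5 and 7 were 10.5%, 21.1%, 29.4% and 25%. Series 6 had the highest share, 13 of 34 cells (38.2%, interval 22.2% to 56.4%). The intervals of series 4, 5, 6 and 7 lay above that of series 1 without overlap, while those of neighbours among series 3 to 7 overlapped. Cells of series 5 and 6 also held more genes above 1000 CPM of any kind, with medians of 200 genes per cell or more, against 127 in series 1. The part of that difference in the Pdgfra shares was not tested. With every cell thinned to 300000 reads, which leaves out 33 shallower cells, the shares in series 1 to 7 were 0, 0, 6.06%, 17.1%, 31.0%, 38.2% and 23.8%. A single cell of series 4 held Pdgfra at 15866 CPM, from 1983 of its 124983 reads, and the next highest cell had 2759 CPM.

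Pdgfrb, the receptor for PDGF-B and PDGF-D, was found in 52.4% of cells (interval 46.5% to 58.2%) and reached 100 CPM in 75 (25.5%). The gene lies on chromosome 18, from 61045150 to 61085061 on the plus strand. In the cells with it, the median was 96.6 CPM, and only 2 cells passed 1000 CPM. Series 1 detected it in 75.9% of cells and series 2 to 7 in 47.9%, 52.6%, 50.0%, 44.1%, 41.2% and 43.2%, which all lay inside each other's intervals. Without series 1 the share was 46.6%. The shares of both PDGF receptors in series 5 to 7 thus lay far apart: 85.3% to 88.2% of cells had Pdgfra and 41.2% to 44.1% had Pdgfrb.

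Ednra was found in fewer cells. The endothelin A gene lies on chromosome 8, from 77663031 to 77724464 on the minus strand, and was detected in 77 cells (26.2%, interval 21.3% to 31.6%). It was highest in series 1 (46.6% of cells) and lowest in series 6 (11.8%), and without series 1 the share was 21.2%. In the cells with it, the median was 113 CPM and the highest level 881 CPM. At 100 CPM the shares in series 1 to 7 were 15.5%, 18.8%, 13.2%, 18.4%, 8.82%, 5.88% and 22.7%, so series 1 was no longer the highest and series 6 was still the lowest.

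Ednrb was the rarest member, in 36 cells (12.2%, interval 8.73% to 16.5%). The gene lies on chromosome 14, from 103814625 to 103844402 on the minus strand. Of these cells, 20 belonged to series 1 and 9 to series 2, and series 3 held none, 0 of 38 cells (interval 0 to 9.25%). Another 36 cells of series 1 had between 1 read and 10 CPM of Ednrb, so the share there depends on the level asked for. The 10 highest cells held 89.5% of all Ednrb CPM, while those of the other members held 25.5% to 37.7%.

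Ece1, on chromosome 4 from 137862237 to 137965229 on the plus strand, was seen in 42.9% of cells (interval 37.1% to 48.7%). Its level was modest throughout, with a median of 76.4 CPM in the cells with it and a highest value of 714.5 CPM. Series 5 had the highest share, 61.8%, followed by series 1 with 58.6%, and series 6 had the lowest, 26.5%. The mean level was 109 CPM in series 5 and 22.2 CPM in series 6, with the others between 44.5 and 51.6 CPM.

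Per kilobase of exon, which allows levels of different genes to be set side by side, the mean over all cells was 51.0 CPM per kb for Pdgfra, 24.0 for Ednrb, 18.9 for Pdgfrb, 10.0 for Ece1 and 7.95 for Ednra. The place of Ednrb rests on its 10 highest cells. In cells with the gene, the median level was 32.8 CPM per kb for Pdgfra and 32.5 for Ednrb, followed by 20.6 for Ednra, 17.6 for Pdgfrb and 14.4 for Ece1. Ednra and Ece1 thus traded places with the measure, and Ednra was rarer but not lower where it was found. A cell had 2 of the 5 genes most often (40.1% of cells), and 9 cells had none. All 5 genes were found together in 12 cells, 11 of them from series 1. These 11 cells had 71923 to 1151575 total reads, all below the series 1 median of 1588065.5. In a shallow cell a few reads reach 10 CPM, and the part of depth in this count was not tested.

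**Figure D1:**
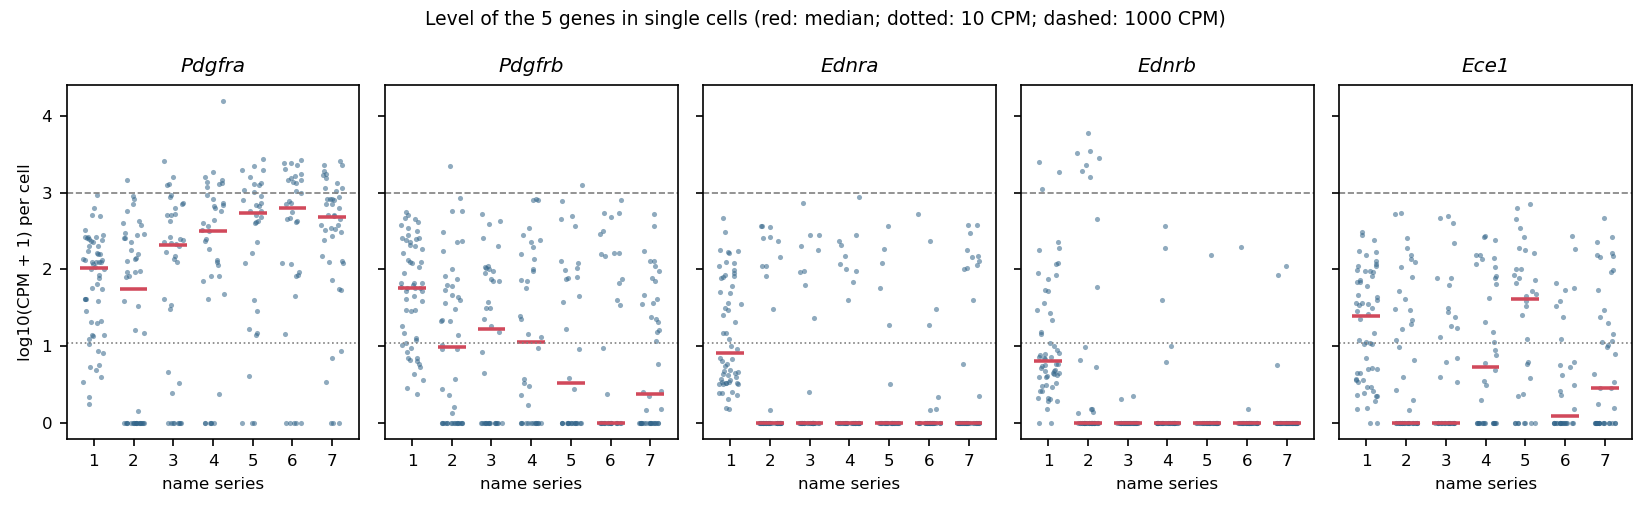
Each point is a cell, placed by name series on the x axis and by log10(CPM + 1) on the y axis, with 1 panel per gene. The red bars are series medians, the dotted line is 10 CPM and the dashed line 1000 CPM. Pdgfra medians run from 58.3 CPM in series 2 to 635.8 CPM in series 6, Ednrb passes 1000 CPM only in series 1 and 2, and series 1 has few points at 0.

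Over all cells the measured ligands of these receptors were each detected in fewer cells than Pdgfra, Pdgfrb or Ednra, though Pdgfa, Pdgfc and Edn1 were found in more cells than Ednrb. Pdgfa and Pdgfc, which feed PDGF receptor alpha, were each detected in 54 cells (18.4%). Without series 1, Pdgfc was no longer rarer than Ednra, with 51 cells (21.6%) against 50 (21.2%). Pdgfd was found in 13 cells and Pdgfb, the ligand that pericytes usually receive from endothelium, in 1 cell (0.340%). Pdgfrl, a receptor-like protein without a kinase, was present in 53.1% of cells. Edn1, the endothelin that activates receptor A, was detected in 47 cells (16.0%, interval 12.0% to 20.7%), and Ece2, a second converting enzyme, in 62 (21.1%). Mme, which breaks endothelin down, was found in 16 cells. Edn2 and Edn3 were not analysed here.

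Downstream genes were more common. All 12 listed genes of PDGF receptor signalling were detected in at least 10% of cells, from Plcg1 (11.6%), a phospholipase C, to Ptpn11 (63.3%), the phosphatase SHP2. Of 12 listed genes of endothelin signalling, 8 reached 10% of cells. Gnai2, a G protein subunit, was in 90.5% of cells and Gna11, one of the subunits that couple endothelin receptors to phospholipase C, in 48.6%. Among 5 measured genes that endothelin A controls in the facial crest, Hand2 was in 48.3% of cells. The others were rare: Msx1 was in 8.16% of cells, Hand1 in 7.82%, Dlx5 in 2.38% and Dlx6 in 1.02%.

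Detection of the 5 genes in the same cell was compared with what independent detection would give: the product of both shares in a name series, added up over the 7 series, so that differences between series do not enter. Both PDGF receptors were found in 41.5% of cells (interval 35.8% to 47.4%), against 41.2% from the product. Both endothelin receptors were found in 16 cells (5.44%) against 4.40%. For all 10 pairs the observed interval held the product. That interval describes the joint share and not its difference from the product, so it does not test independence. The intervals leave room for differences of several points in either direction. Single series could lie further off. In series 2, Pdgfra and Ednrb shared 1 cell against 5.25 from the product. In series 1, Ednra and Ece1 shared 20 cells against 15.8.

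The largest difference was that of Pdgfrb and Ednra. They shared 50 cells (17.0%, interval 12.9% to 21.8%) against a product of 15.0%, which makes 2.01 points. The observed share was above the product in 5 series and below it in 2. It was the only pair at 2 points or more. With Pdgfrb, 21.7% of all 8852 genes tested lay 2 points or more above their product, and with Ednra 12.7% did, so the pair did not stand out among genes. For the other members these shares of genes were 5.13% with Pdgfra, 8.95% with Ednrb and 12.2% with Ece1. The difference of Pdgfrb and Ednra was 0.0084 points at 1 read, 0.20 at 5 reads and 0.36 at 100 CPM, and ran from 1.44 without series 1 to 2.91 without series 6.

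Pdgfra with Ednrb had the largest deficit, 24 cells (8.16%) against 9.43%. Among all genes tested with Pdgfra, 0.915% lay 2 points or more below their product, and Ednrb, at 1.26 points below, was not among them. The difference, -1.26 points, depended on the setting. It was -2.34 points at 1 read, -2.47 at 5 reads, -2.39 with thinned reads and -2.19 without series 1. It was -0.24 when the 8 cells with 3 or more glial markers, described further on, were left out, and turned to an excess of 0.22 points without series 2. Spearman correlations of the levels within series were weak for all 10 pairs. Their medians over the 7 series lay between -0.19 for Pdgfra with Ednrb and 0.05 for Ednra with Ednrb, and in data with many zeros such values are no finding.

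**Figure D2:**
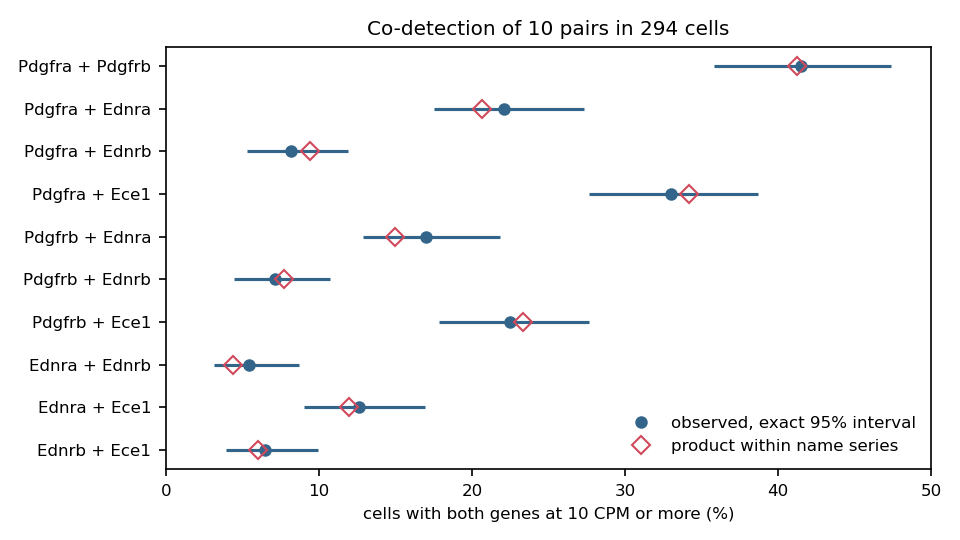
For each of the 10 pairs, the filled point is the share of 294 cells with both genes at 10 CPM or more, the line its exact 95% interval, and the open diamond the product of the shares within name series. Every diamond lies on its line, from 41.2% for both PDGF receptors to 4.40% for both endothelin receptors.

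Where both PDGF receptors were detected, Pdgfra had the higher CPM in 86 cells (70.5%). Pdgfra has 10.024 kb of exon and Pdgfrb 5.478 kb, and per length Pdgfra was higher in 72 of these cells (59.0%). The median log2 ratio of Pdgfra to Pdgfrb was 1.19 in CPM and 0.32 per length. Its middle range in CPM ran from -0.45 to 2.93, so single cells leaned to either receptor.

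Cells with 1 PDGF receptor were then set apart by level: at least 100 CPM of one and less than 10 CPM of the other. This gave 93 Pdgfra-only cells (31.6%, interval 26.4% to 37.3%) and 19 Pdgfrb-only cells (6.46%, interval 3.94% to 9.91%). Another 45 cells had both genes at 100 CPM, and 31 had neither at 10 CPM. In series 1 to 7 the Pdgfra-only cells numbered 8, 10, 11, 14, 17, 15 and 18, and the Pdgfrb-only cells 6, 4, 2, 1, 3, 2 and 1. The classes rest on levels that run on without a gap: the lowest Pdgfra inside its class was 116.3 CPM and the highest just outside 92.6 CPM, and for Pdgfrb these values were 101.9 and 95.3 CPM. Pooled over series, total reads were alike, with medians of 1248649 and 1239380. Pdgfrb-only cells then had more genes with a read, a median of 4726 against 3897. Within series 1, 2 and 5 they had fewer, with medians of 7399.5, 4191.5 and 3537 against 7704.5, 4590.5 and 3976. In series 3, 4, 6 and 7, with 1 or 2 Pdgfrb-only cells each, they had more. Median reads in series 5 were 321428 in Pdgfrb-only and 1139137 in Pdgfra-only cells. The part of these differences in the values that follow was not tested.

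**Figure D3:**
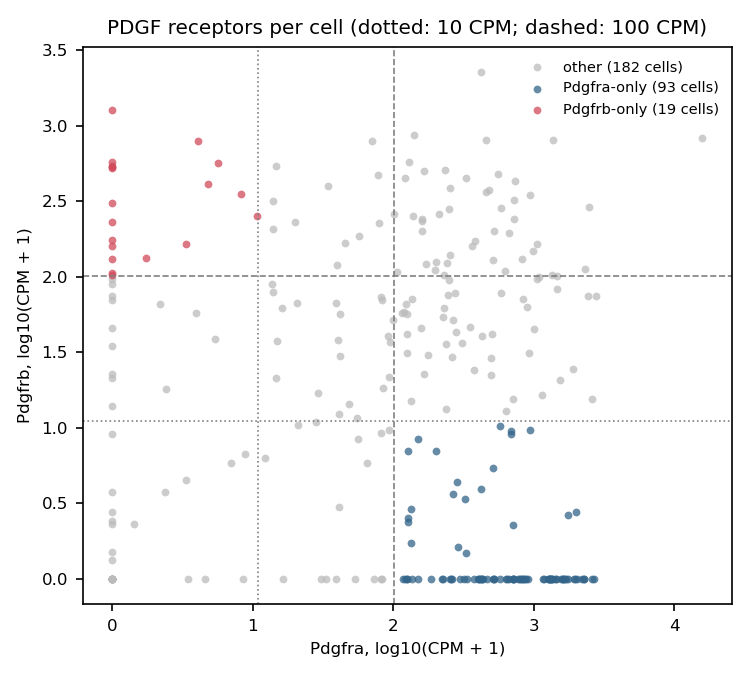
Each point is a cell, with Pdgfra on the x axis and Pdgfrb on the y axis, both as log10(CPM + 1). Blue points are the 93 Pdgfra-only cells, red points the 19 Pdgfrb-only cells and grey points all others, and 10 CPM and 100 CPM are drawn as dotted and dashed lines.

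The endothelin genes did not follow this split. Ednra was detected in 19 of 93 Pdgfra-only cells (20.4%, interval 12.8% to 30.1%) and in 4 of 19 Pdgfrb-only cells (21.1%, interval 6.05% to 45.6%). Ece1 was found in 46.2% and 52.6% of them, and Ednrb in 4 of 93 and 2 of 19 cells. Compared within series, the differences, counted as Pdgfra-only minus Pdgfrb-only, were 2.07 points for Ednra, -2.31 for Ece1 and -1.08 for Ednrb. The intervals of the small Pdgfrb-only class are wide, so smaller differences could not be detected at this number of cells.

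Across all genes, the difference in the share of cells with the gene was taken within series and weighted over series. A gene was counted as separating the classes at 30 points or more with 1 direction in each of the 3 series that had at least 3 cells of both classes (series 1, 2 and 5). Of 8851 genes tested, 44 did so (0.497%): 22 were higher in Pdgfra-only cells (0.249%) and 22 in Pdgfrb-only cells (0.249%). None of the other 3 members was among them. The median difference over all genes was 0.17 points, and 90% of genes lay between -19.1 and 17.6 points, so differences of some 20 points were common in a comparison with 19 cells on one side.

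Sox11, a transcription factor of progenitor cells, led the Pdgfra-only side, with detection in 58 of 93 cells (62.4%, interval 51.7% to 72.2%) and in 4 of 19 Pdgfrb-only cells (21.1%, interval 6.05% to 45.6%). Tgfb3, a ligand of the TGF-beta family, was found in 37 of 93 against 4 of 19 cells, and Map3k7, the kinase TAK1, in 44 against 4. Sdc3, a heparan sulfate proteoglycan, was in 49 and 6 cells. The rest of the 10 largest were Snrnp200, Dguok, Snf8, Dcun1d1, Sft2d2 and Pdcd11, with differences within series of 32.6 to 37.5 points.

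Drg1, a GTP-binding protein, led the Pdgfrb-only side, with detection in 18 of 19 cells (94.7%, interval 74.0% to 99.9%) and in 42 of 93 Pdgfra-only cells (45.2%, interval 34.8% to 55.8%). Vegfb, a growth factor of the VEGF family, was found in 13 of 19 against 26 of 93 cells. Atp2a2, the calcium pump SERCA2, was in 17 of 19 and 43 of 93 cells. Myo10, an unconventional myosin, was in 10 of 19 against 13 of 93 cells, and Sorbs3, the adhesion protein vinexin, in 13 of 19 against 20 of 93. Pcdh7, a protocadherin, was found in 8 of 19 and 6 of 93 cells. St5, Msh6, Ric8b and Lztr1 completed the 10, at -40.8 to -36.9 points.

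The identity of the separating genes depended strongly on the settings. When a gene was counted at 1 read instead of 10 CPM, 35 genes passed, of which 1 of the 22 Pdgfra-only genes and 3 of the 22 Pdgfrb-only genes were kept. At 100 CPM for the tested gene, 30 passed and 1 was kept on each side. Leaving out series 1, 2 or 5 leaves 2 series in which the direction is judged, and 1.60%, 1.32% and 1.64% of genes then passed. Without series 3, 4, 6 or 7 the shares were 0.768%, 0.689%, 0.915% and 0.780%. No gene of the 44 passed in the opposite direction under any of these settings.

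None of the listed marker or pathway genes was among the 44, but the lists did not all lean alike. All 9 smooth muscle genes were found in a larger share of Pdgfrb-only cells, with a median difference of -12.1 points against 0.17 for all genes. They ran from Myl9 (-22.5 points), the myosin light chain, to Cnn1 (-5.64), the actin-binding protein calponin. Pooled over series, Acta2, smooth muscle actin, was detected in 15 of 19 Pdgfrb-only and 46 of 93 Pdgfra-only cells, at mean levels of 2438 and 363.6 CPM. Series 1, rich in Acta2, supplied 6 of the 19 and 8 of the 93 cells. Weighted within series, the shares were 76.5% and 60.7%, a difference of -15.8 points. Mean levels were not compared within series. All 4 tested pericyte genes leaned the same way, with a median of -10.8 points, and Rgs5, an inhibitor of G protein signalling that marks pericytes, was found in 9 of 19 against 18 of 93 cells. None of the smooth muscle or pericyte genes had 1 direction in each of series 1, 2 and 5. Acta2, Tagln, Cnn1, Myl9 and Des differed by 0 points in series 1, and Smtn was at 40 points in series 2. Rgs5 stood at 4.17, -65 and 5.88 points in series 1, 2 and 5. Pooled over series, the summed CPM of the 9 smooth muscle genes ran from 0 to 30994 in Pdgfrb-only cells (median 1769). In Pdgfra-only cells it ran from 0 to 10397 (median 697).

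Cushion and valve mesenchyme genes leaned to the Pdgfra-only cells, with 6 of 9 higher there, 2 lower and 1 equal, and a median of 5.94 points. The largest differences were those of Scx (23.7 points), a factor of tendon and valve cells, Sox9 (23.1) and Twist1 (21.4), both mesenchymal transcription factors. None of these 3 had 1 direction in each of series 1, 2 and 5. Scx was at -8.33 and Sox9 at 0 points in series 1, and Twist1 at -1.96 in series 5. Hapln1, which links hyaluronan to proteoglycans, was at -13.0 points. Among 6 fibroblast genes, 3 were higher in Pdgfra-only cells, 2 in Pdgfrb-only cells and 1 was equal. The largest difference was that of Tcf21 (17.9 points), found in 46 of 93 against 6 of 19 cells. In series 1, 2 and 5 it stood at 12.5, 40 and -31.4 points.

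The pathway's own genes were spread on both sides. Of 12 PDGF receptor signalling genes, 5 were higher in Pdgfra-only and 7 in Pdgfrb-only cells, with a median of -0.43 points and a range from Grb2 (-20.6), an adaptor, to Ptpn11 (20.6). Among 8 tested endothelin signalling genes the median was -4.12 points. Gna11 (-28.2), Rgs5 (-26.7), also on the pericyte list, and Plcb3 (-26.6), a phospholipase C, came closest to the 30 points. Heyl, a target of Notch, was detected in 8 of 19 Pdgfrb-only and 7 of 93 Pdgfra-only cells (-27.4 points). Pdgfa, a ligand of PDGF receptor alpha, was found in 6 of 19 Pdgfrb-only and 6 of 93 Pdgfra-only cells (-25.4 points). None of these genes reached the 30 points.

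**Figure D4:**
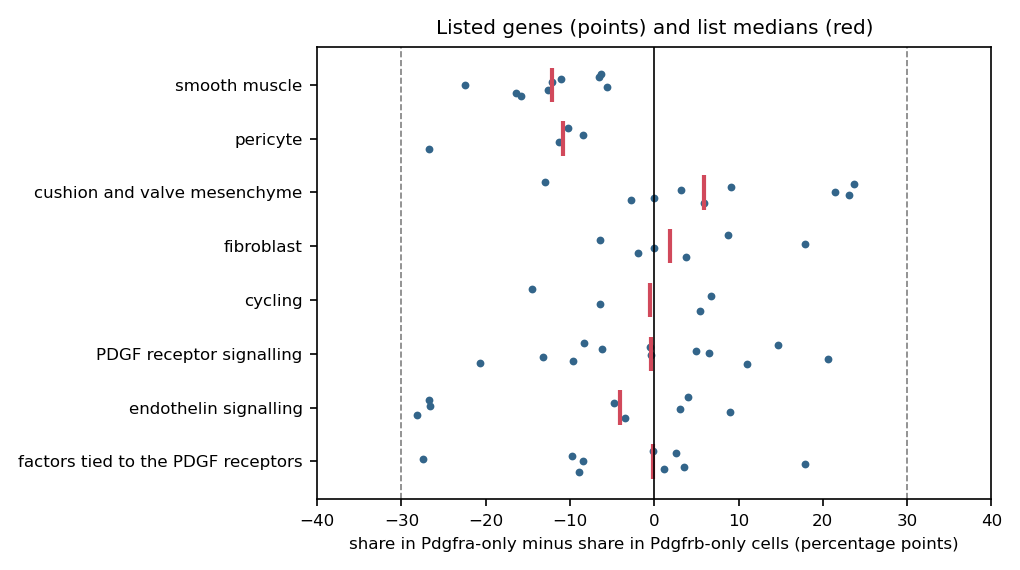
Each point is a listed gene, placed on the x axis by the share of Pdgfra-only cells with it minus the share of Pdgfrb-only cells, in percentage points within name series. Red bars are list medians and dashed lines the 30 points used for a separating gene. All 9 smooth muscle and all 4 pericyte points lie left of 0, and no point passes a dashed line.

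The members were next compared between cells with a marker gene at 100 CPM or more and cells with it below 10 CPM, for 8 marker genes and 5 members, which makes 40 differences within series. Pdgfrb was more frequent in cells with Acta2, found in 62.6% of them (97 cells, interval 54.5% to 70.2%) and in 37.5% of those without (42 cells, interval 28.5% to 47.1%). Series 1 held 50 of the cells with Acta2 and no cell below 10 CPM, so it enters only the first share. Weighted within the other series, the shares were 53.6% and 36.1%. Within series the difference was 17.5 points, positive in 5 of the 6 series compared, and 12.3 to 20.2 points with any 1 series left out. Of all genes, 19.8% were higher by 10 points or more in the Acta2 cells, whose median number of genes was 5128 against 3685. Pdgfrb was the only member of the 5 to pass 10 points there.

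Pdgfrb also went with Dcn, the fibroblast proteoglycan decorin. It was detected in 98 of 153 cells with Dcn (64.1%) and in 45 of 123 without (36.6%). Series 1 again had no cell on the low side, and the shares weighted within the other series were 59.8% and 32.5%. The difference within series was 27.3 points, where 10.1% of all genes passed 10 points. Over single series left out, the difference was 17.6 to 32.1 points. Pdgfra stood at 13.9 points for Dcn within series, though its pooled shares were 79.7% and 80.5%, and the value was as low as 2.35 points with 1 series left out. It was higher in only 2 of the 5 series compared and lower in 3. Pdgfrb was more frequent in cells with Mki67, a marker of cycling cells, by 19.8 points, and Ednrb by 12.9. In that comparison 41% of all genes passed 10 points, the median gene stood at 7.997 points and the upper 5% began at 25.8.

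Pdgfra was more frequent in cells with Sox9, the factor of cushion mesenchyme and cartilage. It was present in 86.1% of cells with Sox9 (interval 80.3% to 90.7%) and in 24 of 43 without (55.8%, interval 39.9% to 70.9%). The difference within series was 25.96 points, positive in 6 of 7 series and at least 19.6 points with any 1 series left out, and 15.5% of all genes passed 10 points. The other 4 members lay between -3.05 and 9.15 points.

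Pdgfra was in turn rarer in cells with Myh11, the smooth muscle myosin of differentiated muscle. It was found in 7 of 17 cells with Myh11 (41.2%, interval 18.4% to 67.1%) and in 209 of 260 without (80.4%, interval 75.03% to 85.03%), a difference of -35.0 points. It was -56.7 points without series 1 and -21.3 without series 2. In this small class 17.9% of all genes were lower by 10 points or more. Pdgfrb pointed the other way, with 13 of 17 against 130 of 260 cells and 16.9 points, where 21.1% of genes were higher by 10 points or more. Only 2 series held at least 3 cells on both sides.

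With Twist1, Ece1 was higher by 13.8 points (7.13% of all genes passed 10 points) and Ednra lower by 11.8 (6.64% of genes). Of the 7 series compared, Ece1 was higher in 5 and lower in 2, and Ednra lower in 4 and higher in 3. With any 1 series left out the differences of Ece1 and Ednra ranged from 6.95 to 21.8 and from -16.7 to -7.21 points. When the cells carrying 3 or more glial markers were left out, the differences named above for Pdgfrb with Acta2, Dcn and Mki67 were 15.4, 24.5 and 22.3 points. Pdgfra then stood at 22.5 points with Sox9, -38.7 with Myh11 and 7.92 with Dcn.

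Ednra was frequent in the few cells without Postn, the matricellular protein periostin that nearly every cell of the series carried. Postn lay below 10 CPM in 6 cells, and Ednra was detected in 5 of them (83.3%, interval 35.9% to 99.6%), at 110.6, 148.3, 180.5, 382.96 and 880.7 CPM. In cells with Postn at 100 CPM or more, Ednra was found in 25.5% (71 cells, interval 20.5% to 31.1%). The difference for cells with Postn was -60.7 points within series. In this comparison 21.4% of all genes were lower by 10 points or more. With any 1 series left out the difference ran from -76.5 to -57.2 points, and only 1 series held 3 cells without Postn. The 6 cells came from series 2, 3, 4 and 7, none had Ednrb at 10 CPM, and Pdgfra was found in 3 of them and Pdgfrb in 2.

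Ednrb occurred at levels that fell apart in 2 ranges. In 10 cells it lay between 1121 and 6053 CPM, and in the other 26 cells with it between 10.1 and 452 CPM, with no cell between. The 10 high cells came from series 2 (7 cells) and series 1 (3 cells). Of 5 glial markers (Sox10, Fabp7, Foxd3, Erbb3 and S100b), 8 of the 10 cells held 3 or more at 10 CPM or more, with a median of 4 and a lowest number of 1, and summed levels of 918 to 2014 CPM. Sox10, the transcription factor of crest and glia, was detected in 9 of the 10. Sox10 at 100 CPM or more was found in 9 cells of the whole series, and all 9 had Ednrb, against 24 of 280 cells with Sox10 below 10 CPM. The share of genes higher by 10 points or more in those 9 cells was 35.8%.

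The 10 high cells were poor in the other members. Ednra was detected in 0 of 10 (interval 0 to 30.8%), Pdgfrb in 1, Pdgfra in 2 and Ece1 in 2. Acta2 reached 100 CPM in 1 of them. In the 258 cells with Ednrb below 10 CPM, the shares were 23.6% for Ednra, 51.6% for Pdgfrb, 80.2% for Pdgfra and 41.5% for Ece1. No cell of these 258 had more than 2 of the 5 glial markers, and their summed glial level was at most 434.2 CPM.

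The 26 cells with less Ednrb were unlike the 10. Pdgfra was detected in 22 of them (84.6%), Pdgfrb in 20 (76.9%), Ece1 in 17 (65.4%) and Ednra in 16 (61.5%), and Acta2 reached 100 CPM in 21. None had more than 2 of the 5 glial markers. Of the 26 cells, 17 came from series 1, where all members were frequent, and 15 of the 26 had less than 100 CPM, with a median of 502012 total reads. Within series 1, Ednra was found in 12 of these 17 cells (70.6%, interval 44.0% to 89.7%) and in 15 of 38 cells with less Ednrb (39.5%, interval 24.0% to 56.6%). In series 2 to 7 it was found in 4 of 9 (44.4%) and 46 of 220 cells (20.9%). Both differences pointed the same way, with intervals that overlapped. In series 1, the cells with Ednrb at 10 CPM or more had a median of 647673 total reads, against 1728780 in the others. The part of that gap in these values was not tested.

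**Figure D5:**
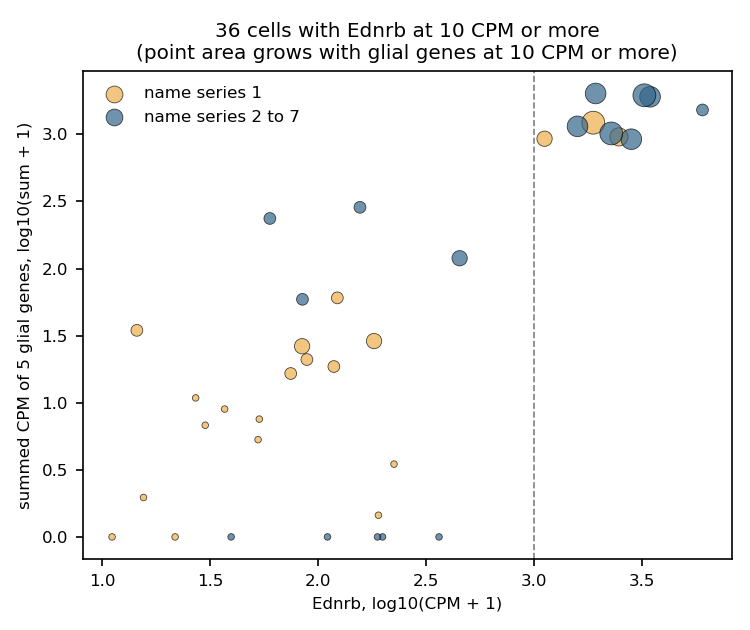
Each point is 1 of 36 cells with Ednrb at 10 CPM or more, with its Ednrb level on the x axis and the summed CPM of 5 glial genes on the y axis, both as log10(value + 1). Larger points have more glial genes detected, and the dashed line is 1000 CPM. The 10 cells right of the line sit together at 918 CPM or more of glial genes, and the 26 cells left of it are all at 284.8 CPM or less.

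The genes most like each member were taken as those with the highest median Spearman correlation of levels over the series, among genes with 1 direction in every series that gave a value. The cells of a series share depth and processing, and for these members the upper 5% of all 8852 genes began at 0.12 to 0.16, so the values are descriptions. For Pdgfra they were Ptn (0.33), the growth factor pleiotrophin, Shisa2 (0.27), the proteoglycan gene Vcan (0.25), the collagen gene Col5a2 (0.23) and Cnot4 (0.22). For Pdgfrb they were Heyl (0.32, between 0.18 and 0.38 in all 7 series), Dusp6 (0.31), a phosphatase that acts on ERK, Pi15 (0.27), the Wnt pathway factor Lef1 (0.27) and, from 3 series, the forkhead factor Foxs1 (0.26). Ednra was most like Tapbp (0.27), Pkd2 (0.26), Ppp2r2a (0.25), Rnf103 (0.24) and Fam126a (0.24), and Ece1 most like Tmem147 (0.29), Bicc1 (0.28), Cgnl1 (0.26), 1110038B12Rik (0.25) and Fndc1 (0.24). When levels were first adjusted for total reads and genes per cell, 2 of the 5 were kept for Pdgfra, 3 for Pdgfrb, 0 for Ednra and 2 for Ece1.

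For Ednrb, too rare for a correlation in most series, the share of cells with each gene was compared between the 36 cells with Ednrb and the other 258, without asking for 1 direction in every series. Scn7a, a sodium channel of glia and neurons, differed most (25 of 36 against 5 of 258 cells, 60.4 points within series). Cnp, a gene of myelinating cells (24 against 17 cells), Cadm1 (23 against 43 cells) and Mef2c were also among the largest. Of these 4, only Mef2c had 1 direction in each series in which it was judged. Only genes detected in a minimum share of all cells were compared. Scn7a and Cnp, found in 5 and 17 of the other 258 cells, met that minimum only through the cells with Ednrb. Cadm1 and Mef2c met it without them. How common differences of this size were among all genes is not given here.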

How the data were processed

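Both deposited tables cover all 294 cells. The authors deposited raw counts as whole numbers for 15124 genes, and a table named SCT with a rounded score for 14051 genes, used only as an alternative. HISAT2 2.1.0, featureCounts, Seurat and the mm10 build are named in the submitters' processing notes. Whether reads were counted by strand is not given in the sources used here. Exons of Pdgfra overlap 3 other annotated genes and those of Ednra 1, by at most 456 bases. Coordinates and exon lengths come from GENCODE M21 on GRCm38, in which 14525 gene names matched 1 gene. The raw table held no total row, and no 2 cells had identical columns.

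Counts were scaled to CPM within each cell with Python 3.11.15, numpy 2.4.6, pandas 2.3.3 and scipy 1.17.1. Genes compared across the table needed 10 CPM in at least 10% of cells. Differences between classes were taken within name series and weighted over series. The genes named are the 5 members, the listed genes, the 10 largest differences in each direction past 30 points and the 5 most alike per member. Since all cells are 1 group, no p-value or standard error was computed. A few listed genes are not reported here, and the glial list was used without them. The members and lists were chosen with earlier results of these data known. The scripts were tested on simulated data. The glial-free runs, the score at 10 or more and the 1000 CPM level with its alternatives were chosen after seeing the data.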

Additional observations from a re-analysis of the deposited data

How the results depend on the processing

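Of 65 alternative values for the members' shares, 46 moved by less than the counting interval and 19 by more. At 1 read the shares were 85.0% (Pdgfra), 66.3% (Pdgfrb), 39.5% (Ednra), 28.9% (Ednrb) and 63.6% (Ece1), and at 100 CPM 62.2%, 25.5%, 15.3%, 7.14% and 16.3%. With the authors' score at 1 or more they were 88.1%, 67.0%, 40.1%, 28.2% and 65.0%. At 5 reads Ednrb was in 20.4% and Ece1 in 49.0% of cells. Without series 1 Ednra was in 21.2% and Ednrb in 6.78%. All 150 alternative differences for the 10 pairs stayed inside the interval of the joint share. For most pairs that interval is several points wide, so small differences could hardly leave it, and this does not show that they were stable. Inside it, Pdgfra and Ednrb ran from -2.47 to 0.22 points. The count of pairs at 2 points was 0 at 100 CPM, with the score at 1 or 10, without series 4, without series 7 and without glial-marker cells, and 2 with thinned reads or with all cells as 1 stratum. An equal count can be a different pair: at 1 read and at 5 reads it was Pdgfra and Ednrb. Separating genes, 0.497% of those tested as reported, made up 0.271% at 50 CPM, 2.66% against cells with 0 reads, 1.24% with all cells as 1 stratum, 0.769% among genes in at least 30% of cells and 0.291% with no filter (the same 44 genes). Without series 1, 2, 3, 5, 6 and 7 they made up 1.60%, 1.32%, 0.768%, 1.64%, 0.915% and 0.780%. Of the alternatives for the marker differences, 291 stayed on their side of 10 points, 26 crossed it and 3 reversed. Part of the 291 could not change, because the series left out held no cell on 1 side. This was so for Sox10 without any of series 3 to 7 and for Myh11 without any of series 4 to 7. It also held for Postn without series 1, 5 or 6, and for Acta2 and Dcn without series 1. Ece1 by Sox10 was -22.7 points, and 10.1 without series 2. Without glial-marker cells, which leaves 1 cell with Sox10 at 100 CPM, Ece1 was at 43.4 and Pdgfrb, -51.0 as reported, at 22.6 points. The cause was not tested. After adjustment for depth, 2, 3, 0 and 2 of the 5 most alike genes were kept for Pdgfra, Pdgfrb, Ednra and Ece1. No paired analysis was possible because all cells form 1 group. Depth limits the classes: 10 CPM is under 1 read in the shallowest cell.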
